A study of Mus musculus with 2 samples.

Results

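Dividing interstitial cells were the barcodes of a mouse heart valve Drop-seq series that carried both matrix transcripts and transcripts of cell division. Drop-seq captures single cells in droplets with barcoded beads and counts the 3′ ends of poly(A) transcripts by unique molecular identifier (UMI). A barcode was a member when Col1a1, Col1a2, Col3a1 and Dcn together held at least 1% of its UMIs and when it carried at least 3 UMIs of Top2a, Mki67, Prc1, Cenpf, Tpx2, Hmmr and Ckap2 together. These values chose 98 of 4473 barcodes, 42 of 3512 in the P30 library and 56 of 961 in the P7 library. P30 cells came from aortic and mitral valves of C57BL/6J mice at postnatal day 30, and P7 cells from the same valves and strain at postnatal day 7. No genotype other than the strain and no treatment was given for either age. There was 1 library per age, from an ungiven number of animals, so age and sequencing run cannot be told apart and no difference had a replicate check.

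Each dividing barcode was set beside the 3 barcodes nearest to it in total UMIs that passed the same matrix threshold and held 0 UMIs of the 7 genes. This gave 126 matched non-dividing barcodes at P30 and 168 at P7. Because the members were chosen on values of the same barcodes, every value below is a description without a test. Levels are UMIs summed over a group per 1000000 UMIs of that group (CPM), with exact Poisson intervals. Ratios are on the log2 scale, dividing over matched, with exact binomial intervals given the summed count. All intervals are at 95% and cover counting error only. A gene counts as measured with at least 20 UMIs over both groups of a library, and as higher or lower where the groups were at least 2-fold apart.

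A dividing cell copies its DNA in S phase, then condenses and separates its chromosomes on a spindle of microtubules in mitosis. Cyclins bound to cyclin-dependent kinases drive these steps, and the anaphase-promoting ubiquitin ligase ends mitosis by marking cyclins for destruction. Genes of the replication machinery are known as targets of E2F factors, and late cycle genes as targets of the MuvB complexes, which bind a promoter motif called CHR. Valve interstitial cells are the fibroblast-like cells that make the collagen, proteoglycan and elastic layers of the leaflets, and their number grows while the leaflets mature after birth.

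Dividing barcodes held 214125 UMIs at P30 and 242817 at P7, with lowest, median and highest depths of 934, 4559.5 and 14338 UMIs at P30 and of 692, 2940 and 18154 at P7. The matched barcodes had median depths of 4549 UMIs at P30 and 2926 at P7, so the groups were alike in depth. The rule favours deep barcodes, since barcodes with 0 UMIs of the 7 genes had a median of 2492.5 UMIs at P30 and 2134 at P7 before matching. No barcode was shared between the libraries, and doublets were not removed. No dividing barcode passed 20000 UMIs. The last base of the barcode was read as N in 3 P30 and 13 P7 members.

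The label was read beside interstitial and other markers. Of 12 interstitial markers, a dividing barcode held a lowest, median and highest number of 4, 9 and 12 at P30 and of 6, 10 and 12 at P7, and at least 6 were present in 38 of 42 and in 56 of 56 dividing barcodes. In matched barcodes the medians were 10 markers at P30 and 10 at P7. The 12 markers include the 4 matrix genes of the rule, whose presence the selection favoured. Among the other markers, Pdgfra was found in fewest dividing barcodes, 6 of 42 at P30 and 12 of 56 at P7. Matched barcodes held Pdgfra in 36 of 126 and 34 of 168. Most frequent were Bgn at P30 (37 of 42 dividing barcodes) and Postn at P7 (55 of 56). The defining markers of the dividing state were present, with Top2a, which untangles DNA strands, at 591 UMIs in 35 of 42 dividing barcodes at P30 and 266 UMIs in 42 of 56 at P7. Prc1, which bundles the spindle midzone, stood at 260 UMIs in 28 P30 barcodes and 143 UMIs in 33 P7 barcodes, and Cenpf, a kinetochore protein, at 292 UMIs in 28 and 127 UMIs in 31. Tpx2, which starts spindle microtubules, stood at 120 UMIs in 25 P30 barcodes and 87 UMIs in 32 P7 barcodes. These are values of the rule itself. Matrix UMIs made up a median of 2.83% of a dividing barcode at P30 and 3.05% at P7, against 3.21% and 4.78% in matched barcodes.

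Of barcodes with at least 1% matrix UMIs, 42 of 2846 (1.48%, exact binomial interval 1.07 to 1.99) were dividing at P30 and 56 of 722 (7.76%, 5.91 to 9.95) at P7. With each barcode thinned to 500 UMIs the expected shares were 0.844% at P30 and 3.12% at P7. Among barcodes of 1500 to 6000 UMIs the P30 share was 0.902%, and with 2 UMIs of the 7 genes as the minimum it was 2.71%. Barcodes under 1% matrix UMIs, which hold the other cell types of the valve, reached 3 UMIs of the 7 genes in 90 of 666 cases (13.5%) at P30 and 38 of 239 (15.9%) at P7. In the part of them with at least 0.5% endothelial marker UMIs the shares were 6 of 125 (4.8%, 1.78 to 10.2) at P30 and 5 of 60 (8.33%, 2.76 to 18.4) at P7.

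Cycle genes that the rule did not use were read by the number of UMIs of the rule genes. The mitosis lists, which hold 4 groups of cyclin, checkpoint, spindle and kinetochore genes outside the rule, reached 595 CPM at P30 and 688 CPM at P7 in barcodes with 0 UMIs of the 7 genes. With 2 UMIs, just outside the rule, they stood at 931 CPM (35 barcodes) at P30 and 1386 CPM (13 barcodes) at P7. With 3 UMIs, just inside, they stood at 1042 CPM (8 barcodes) at P30 and 2098 CPM (6 barcodes) at P7, and with 10 or more at 17166 CPM (29 barcodes) at P30 and 13198 CPM (25 barcodes) at P7. The barcodes just inside the threshold thus lay nearer to those just outside it than to the members with 10 or more UMIs. Genes of DNA replication and nucleotide synthesis stood at 1324 CPM with 2 UMIs, 1593 CPM with 3 and 4625 CPM with 10 or more at P30. At P7 the same genes stood at 3658, 2098 and 5071 CPM, without an even order across the threshold.

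**Figure D1:**
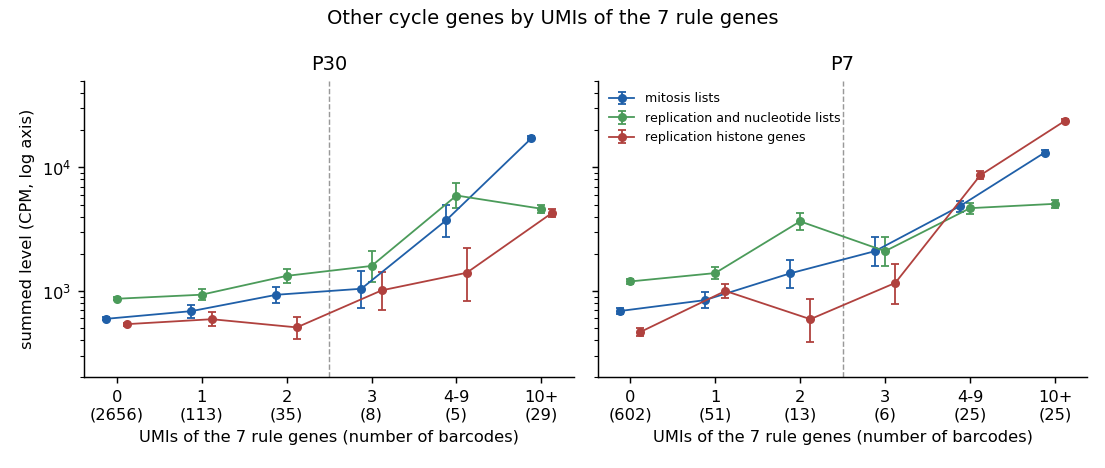
Summed level (CPM, log axis) of 3 groups of cycle genes outside the rule, by the number of UMIs of the 7 rule genes in a barcode, with the number of barcodes in brackets and 95% Poisson intervals as bars. The dashed line marks the threshold of 3 UMIs, and barcodes with 10 or more UMIs stand at 17166 CPM (P30) and 13198 CPM (P7) for the mitosis lists.

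Across all genes, the dividing barcodes were higher for 559 of 5587 measured genes (10%) and lower for 600 (10.7%) at P30. At P7 they were higher for 452 of 6450 (7.01%) and lower for 556 (8.62%). Counts of higher and lower genes in each list below are read beside these shares. The 12 cycle lists hold 277 genes outside the rule. Of their measured genes, 119 of 138 at P30 and 132 of 160 at P7 were higher, and 2 and 1 were lower. The cycle lists thus gave 119 of the 559 higher genes at P30 and 132 of the 452 at P7, and nearly none of the lower genes. Because the rule chose barcodes by genes of the same process, these counts describe the members and support nothing further.

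Among 5105 genes measured in both libraries, 197 were higher in both, which is 41.3% of the 477 higher at P30 and 61.6% of the 320 higher at P7. Of these, 106 belonged to the cycle lists. Of all 5105 genes, 9.34% were higher at P30 and 6.27% at P7. Genes lower in both numbered 72, which is 14.4% of the 499 lower at P30 and 20.2% of the 357 lower at P7. Of all 5105 genes, 9.77% were lower at P30 and 6.99% at P7. Across genes, the P30 and P7 log2 ratios had a Pearson r of 0.90 over 130 cycle genes and 0.40 over 4975 other genes, where genes are not independent replicates. Over the 1242 other genes with at least 100 UMIs in each library r was 0.49. Pearson r depends on how widely the ratios spread, so it does not show for which genes the ratios lay closer together.

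**Figure D2:**
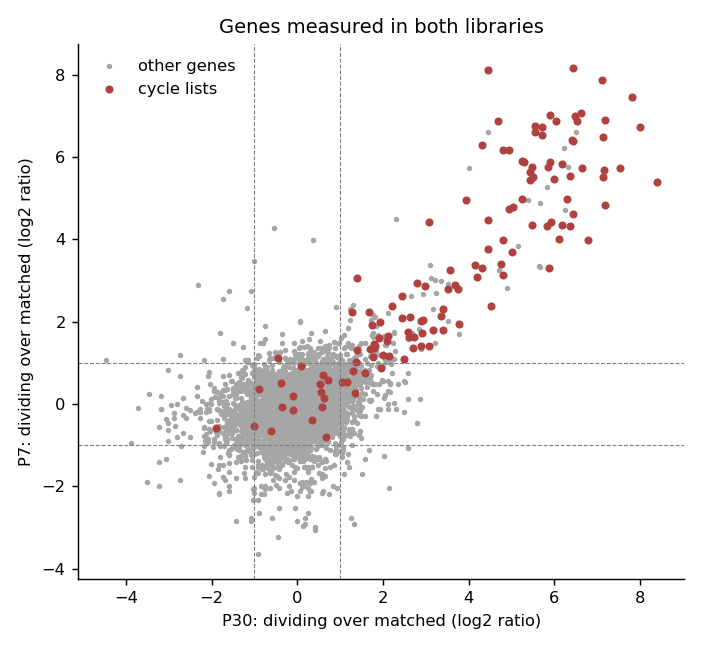
Log2 ratio of dividing over matched barcodes at P30 (x axis) and P7 (y axis) for the 5105 genes measured in both libraries, with genes of the cycle lists in red and dashed lines at 2-fold. Genes at 0 in a group are drawn at the value for a floor of 3 counts, and 106 cycle genes lie past 2-fold higher in both libraries.

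Spindle motors and midzone genes were nearly absent from matched barcodes at both ages. Their summed level was 5898 CPM (5578 to 6233) in dividing and 64.1 CPM (46 to 87) in matched barcodes at P30, and 3929 CPM (3684 to 4186) against 65.3 CPM (47.4 to 87.6) at P7. All measured genes of the list were higher, 17 of its 25 members at P30 and 19 of 25 at P7. Their median log2 ratios were 6.31 and 5.75, while the medians over all measured genes were -0.02 and -0.08. The list held 1263 UMIs in dividing against 41 in matched barcodes at P30 and 954 against 44 at P7. Its genes thus reached 20 UMIs mainly through the dividing group. That all measured genes were higher was nearly fixed by this filter and is a description only. Kif11, the motor that pushes the spindle poles apart, had 45 UMIs in 20 of 42 dividing barcodes and 0 UMIs in 126 matched barcodes at P30. At P7 it had 58 UMIs in 21 of 56 dividing barcodes and 0 in 168 matched barcodes. Kif11 was thus at least 5.49 (P30) and 5.75 (P7) higher on the log2 scale, with the matched group set at a floor of 3 counts. Kif23, a motor of the central spindle that cytokinesis needs, had 97 UMIs in 25 dividing barcodes against 4 in 2 matched barcodes at P30 and 61 UMIs in 20 dividing barcodes against 0 at P7. Cdca8, also called borealin, a subunit of the chromosomal passenger complex, had 75 UMIs in 22 dividing against 1 in 1 matched barcode at P30 (log2 ratio 7.81, interval 5.29 to 13.13). At P7 it had 63 UMIs in 26 dividing against 1 in 1 matched barcode (7.45, 4.92 to 12.78). With 1 matched barcode for each member the list medians were 4.19 at P30 and 4.76 at P7.

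Kinetochore and centromere genes reached 3148 CPM in dividing against 142 CPM in matched barcodes at P30, with 15 of 16 measured genes of 22 higher and a median of 4.80. At P7 they reached 2442 against 224 CPM, with 15 of 16 higher and a median of 5.22. The list held 674 dividing against 91 matched UMIs at P30 and 593 against 151 at P7. Most of its genes thus passed the filter of 20 UMIs through the dividing group, and the counts of higher genes are a description only. With at least 50 UMIs the P7 median was 2.10, and with 1 matched barcode per member the P30 median was 3.52. Cenpe, the kinetochore motor that brings chromosomes to the spindle middle, was counted in the spindle list and not in this one. It had 0, 1 and 42 UMIs as lowest, median and highest in dividing barcodes at P30 and 0, 0 and 2 in matched barcodes. Its sums were 186 UMIs in 23 dividing against 4 in 3 matched barcodes at P30 (log2 ratio 7.12, 5.74 to 9.01) and 84 in 23 against 1 in 1 at P7 (7.87, 5.35 to 13.19). Nuf2, a subunit of the complex that holds microtubules at the kinetochore, had 64 UMIs in 20 dividing barcodes at P30 and 48 in 23 at P7, against 0 in matched barcodes of either age. Its log2 ratios at the floor of 3 counts were 5.99 (P30) and 5.47 (P7), with lower interval bounds of 5.65 and 5.12. Cenpe and Nuf2 transcripts were thus absent from many members, and the groups overlapped at 0 UMIs. Zwint, another kinetochore gene, was the exception, at -0.88 in P30 and 0.37 in P7 barcodes.

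Cyclins and mitotic kinases stood at 2886 CPM (2663 to 3123) in dividing and 71.9 CPM (52.7 to 95.9) in matched barcodes at P30. At P7 they stood at 1870 CPM (1702 to 2050) and 71.2 CPM (52.5 to 94.4). All measured genes were higher, 9 of the 19 in the list at P30 with a median of 5.24 and 7 of 19 at P7 with 5.75. The list held 618 dividing against 46 matched UMIs at P30 and 454 against 48 at P7. Its genes thus also passed the filter mainly through the dividing group, and these counts are a description only. With 1 matched barcode per member the P30 median was 3.66, and against unmatched barcodes it was 7.03. Ccnb2, a B-type cyclin of mitosis, had 77 UMIs in 23 dividing against 4 in 4 matched barcodes at P30 (log2 ratio 5.85, 4.43 to 7.76) and 58 in 22 against 0 at P7. Cdk1, the kinase it activates, had 59 against 3 UMIs at P30 (5.88, 4.26 to 8.19) and 25 against 7 at P7 (3.31, 2.06 to 4.76). Ccna2, the cyclin of S phase and of entry into mitosis, had 38 against 0 UMIs at P30 and 43 against 2 at P7 (5.90, 3.96 to 8.99). Each of these genes was nearly absent from matched barcodes of equal depth.

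Genes of the anaphase ubiquitin ligase and its checkpoint were split. Ube2c, the enzyme that hands ubiquitin to that ligase, had 113 UMIs in 20 dividing against 1 UMI in 1 matched barcode at P30 (log2 ratio 8.4, 5.89 to 13.71). At P7 it had 45 UMIs in 15 dividing barcodes against 0, at least 5.38 higher. Cdc20, which activates the ligase, had 96 against 2 UMIs at P30 (7.16, 5.27 to 10.23) and 37 against 2 at P7 (5.68, 3.73 to 8.78). Members of the same list with little or no difference were Cdc26, a small ligase subunit, at -0.38 in P30 and 0.51 in P7 barcodes, and Pttg1, or securin, at -0.09 and -0.15. In sum 4 of 6 measured genes at P30 and 5 of 7 at P7 were higher, of 13 in the list. The list reached 1971 against 306 CPM at P30 and 1034 against 257 CPM at P7.

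The promoters of 6 genes are shown because these genes, outside the rule, had the widest separation in both libraries among those with a sequence in the RefSeq promoter table (build GRCm38.p6). Esco2 and Hist1h2ap ranked among them and had no entry. Each line gives the 150 bases before the annotated transcript start, 5′ to 3′ in the direction of transcription. Capitals mark letters of the CHR, CCAAT and E2F motifs on either strand. CHR was searched as the letters TTTGAA, with the form TTCGAA as well. E2F was searched as the letters TTGGCGC, as the form TTCCCGC, then as the form TTCGCGC, and last as the form TTGGCGG. A capital run that opens with A is the CCAAT motif read on the other strand, and one that ends in AAA is the CHR motif read on the other strand. They lie, in this order, at chr2:164769779-164769928 on the plus strand, chr19:37376232-37376381 on the plus strand, chr4:124936918-124937067 on the minus strand, chr9:61946800-61946949 on the minus strand, chr3:135212413-135212562 on the plus strand and chr1:169531465-169531614 on the minus strand.
Ube2c: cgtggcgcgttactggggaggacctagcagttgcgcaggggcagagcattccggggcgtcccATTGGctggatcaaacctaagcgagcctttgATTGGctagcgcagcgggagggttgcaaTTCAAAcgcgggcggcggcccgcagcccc
Kif11: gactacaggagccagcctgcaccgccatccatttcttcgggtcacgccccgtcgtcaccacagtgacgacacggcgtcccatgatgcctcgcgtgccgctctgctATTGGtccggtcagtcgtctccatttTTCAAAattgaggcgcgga
Cdca8: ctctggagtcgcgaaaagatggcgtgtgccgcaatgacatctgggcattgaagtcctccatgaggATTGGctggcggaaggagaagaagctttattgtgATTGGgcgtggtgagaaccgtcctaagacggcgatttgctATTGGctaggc
Kif23: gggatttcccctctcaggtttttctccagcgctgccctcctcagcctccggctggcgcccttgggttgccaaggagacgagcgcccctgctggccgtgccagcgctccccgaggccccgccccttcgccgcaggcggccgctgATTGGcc
Cenpe: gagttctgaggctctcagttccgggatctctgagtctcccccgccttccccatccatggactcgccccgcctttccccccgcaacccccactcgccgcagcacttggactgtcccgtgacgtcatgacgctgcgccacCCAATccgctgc
Nuf2: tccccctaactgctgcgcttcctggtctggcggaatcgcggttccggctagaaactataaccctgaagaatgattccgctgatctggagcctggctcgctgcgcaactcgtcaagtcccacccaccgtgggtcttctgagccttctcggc
Within these windows Ube2c held 1 CHR and 2 CCAAT matches, Kif11 held 1 of each, Cdca8 held 3 CCAAT matches, and Kif23 and Cenpe held 1 CCAAT match each. Nuf2 held no match, which says only that these letters are not in this window. A match is a description of letters, and binding was not measured.

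The windows of the promoter table held 300 bases (250 before to 50 after each start). Of all 27025 genes with a promoter, 21.7% held CHR letters, 41.1% CCAAT letters and 11.6% E2F letters. A gene with several promoters counted when any of them held the letters. Of the 79 genes of the mitosis lists 67 had a promoter, and 43 of these (64.2%) held CHR letters, 45 (67.2%) CCAAT letters and 16 (23.9%) E2F letters. Of the 49 genes for replication and nucleotide synthesis 42 had a promoter, and 9 (21.4%) held CHR letters, 29 (69%) CCAAT letters and 27 (64.3%) E2F letters. These shares are read beside those of all genes with a promoter and were not tested. All 6 rule genes with an entry held both CHR and CCAAT letters. Of the proteoglycan genes 16 had a promoter, and 25% of these held CHR letters, 50% CCAAT letters and 25% E2F letters. The replication histone genes had no entry.

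Chromosome structure and chromatin genes held more UMIs than any other cycle list at P30, with 14683 CPM in dividing against 2686 CPM in matched barcodes at P30 and 10831 against 3152 CPM at P7. Of 26 genes, 21 of 22 measured were higher at P30 (median 3.04) and 21 of 24 at P7 (median 2.06). Smc2 and Smc4, the core ATPases of condensin, stood at 1266 CPM against 39.1 CPM and at 1653 against 128 CPM at P30. At P7 Smc2 stood at 515 against 40 CPM and Smc4 at 820 against 110 CPM. Hmgb2, a DNA-bending chromatin protein, had 344 UMIs in 30 of 42 dividing against 58 in 37 of 126 matched barcodes at P30 (log2 ratio 4.15, 3.74 to 4.57) and 260 in 39 of 56 against 70 in 45 of 168 at P7 (3.37, 2.98 to 3.77). Unlike the mitotic kinases, these genes were also found in many matched barcodes.

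Tubulins and microtubule genes stood at 9691 against 2813 CPM at P30, with 11 of 16 measured genes of 20 higher, and at 7804 against 3649 CPM at P7, with 9 of 16 higher. Stmn1, which takes microtubules apart, had 0, 3 and 30 UMIs as lowest, median and highest in dividing barcodes at P30 and 0, 0 and 1 in matched barcodes (log2 ratio 6.18, 5.23 to 7.33). At P7 it had 0, 2 and 17 UMIs against 0, 0 and 5 (4.36, 3.64 to 5.16). Tuba1b, an abundant alpha tubulin, stood at 1452 against 328 CPM at P30 and 1285 against 576 CPM at P7, so that its ratio was smaller at both ages.

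DNA replication genes were also higher in dividing barcodes, with smaller median ratios than spindle genes or mitotic kinases. The licensing and fork list, which holds the MCM helicase and its loaders, stood at 3255 CPM (3018 to 3506) in dividing and 594 CPM (536 to 657) in matched barcodes at P30, and at 3855 CPM (3612 to 4110) and 897 CPM (827 to 972) at P7. Of its 37 genes, 17 of 17 measured were higher at P30 with a median of 2.58, and 24 of 25 at P7 with 2.38. Pcna, the sliding clamp of DNA polymerase, had 77 UMIs in 23 dividing against 68 in 46 matched barcodes at P30 (log2 ratio 1.76, 1.27 to 2.25) and 83 in 29 against 61 in 41 at P7 (1.92, 1.42 to 2.42). Clspn, which relays stalled-fork signals, had 55 against 2 UMIs at P30 (6.36, 4.44 to 9.44) and 58 against 8 at P7 (4.33, 3.26 to 5.61). Gmnn, the inhibitor that stops origins from being licensed again, had 23 against 1 at P30 (6.10, 3.48 to 11.47) and 23 against 4 at P7 (4.0, 2.45 to 5.99). With 2 UMIs as the minimum of the rule the P30 list median was 1.77, and with at least 2% matrix UMIs the P7 median was 1.72.

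Nucleotide synthesis genes stood at 985 against 225 CPM at P30 and 762 against 306 CPM at P7. Of 12 genes, 7 of 9 measured were higher at P30 and 3 of 5 at P7. Rrm2, the cycle-regulated subunit of ribonucleotide reductase, had 38 UMIs in 16 dividing against 2 in 2 matched barcodes at P30 (log2 ratio 5.83, 3.87 to 8.92) and 29 in 14 against 4 in 3 at P7 (4.33, 2.82 to 6.30). DNA repair and recombination genes were measured for 3 of 20 members at P30 and 9 of 20 at P7, of which 3 and 8 were higher, with medians of 1.81 and 1.76.

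Replication histone genes were higher in dividing barcodes at both ages and reached a higher level at P7. They stood at 3591 CPM (3342 to 3854) in dividing and 530 CPM (475 to 590) in matched barcodes at P30, and at 16440 CPM (15934 to 16958) and 443 CPM (395 to 497) at P7. Of 58 genes, 14 of 16 measured were higher and 1 lower at P30 (median 5.71), and 19 of 20 were higher at P7 (median 6.57). Without the minimum of 20 UMIs the medians were 2.16 at P30 and 2.47 at P7. Hist1h2ap had 120 UMIs in 13 dividing against 4 in 4 matched barcodes at P30 (log2 ratio 6.49, 5.09 to 8.38) and 458 in 29 against 10 in 9 at P7 (6.99, 6.10 to 8.06). Of the 15 genes named as most separated at P7, 12 were Hist1h2a genes. These H2A copies are nearly identical in sequence, how reads of several copies were counted is not given, and the copies cannot be told apart here. The exceptions were Hist1h2bc, at -0.46 in P30 and 1.12 in P7 barcodes, and Hist3h2a, at -1.01 and -0.53.

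Most replication histone transcripts end in a stem loop and not in a poly(A) tail, so an assay that captures poly(A) counts only part of them. Slbp, the protein that binds this stem loop, had 44 UMIs in dividing against 38 in matched barcodes at P30 (log2 ratio 1.79, 1.13 to 2.46) and 52 against 53 at P7 (1.45, 0.87 to 2.03).

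The members differed widely among themselves in these genes. Mitosis lists held 328, 12962 and 41990 CPM as lowest, median and highest of the dividing barcodes at P30, and 731, 8435 and 34573 CPM at P7. Replication histone genes held 0, 894 and 24332 CPM at P30 and 0, 4656 and 127888 CPM at P7. Histone UMIs outnumbered mitosis UMIs in 5 of 42 dividing barcodes at P30 and in 26 of 56 at P7. At least 20 histone UMIs were found in 10 P30 members, which held 83.5% of the histone UMIs of the dividing barcodes, and in 25 P7 members, which held 96.5%. In contrast, 9 P30 and 8 P7 members had 0 histone UMIs. The histone level of the group was therefore carried by a part of the members at both ages. The histone sums add near-identical H2A copies, and how reads of several copies were counted is not given. A read counted at several copies would raise the histone level and the counts of members given here. No cycle phase was assigned.

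**Figure D3:**
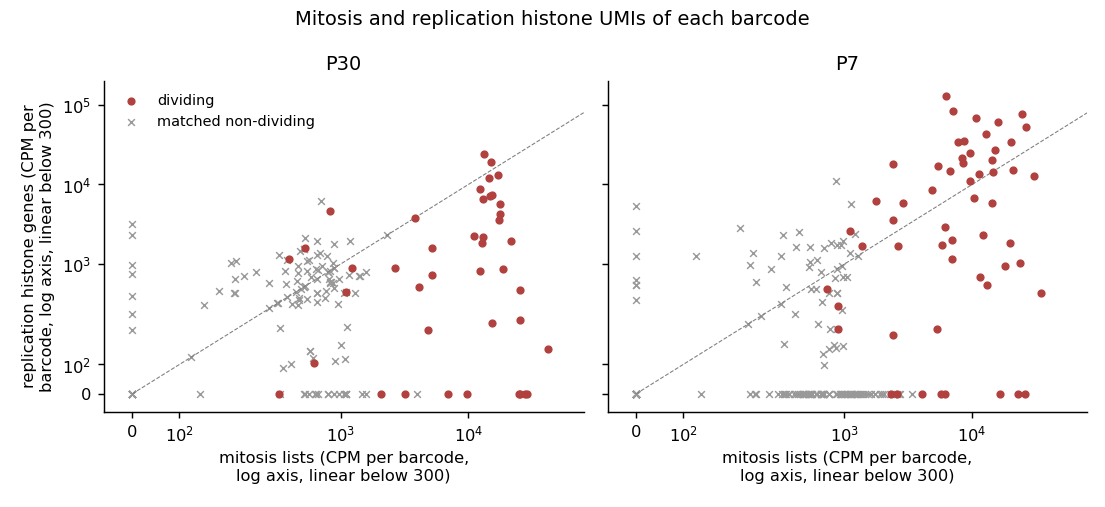
Level of the mitosis lists (x axis) and of the replication histone genes (y axis) in each barcode, in CPM on log axes that are linear below 300, for dividing barcodes (red) and matched barcodes (grey crosses), with the dashed line at equal levels. Histone UMIs exceeded mitosis UMIs in 5 of 42 dividing barcodes at P30 and 26 of 56 at P7. The histone sums add near-identical H2A copies, and how their reads were counted is not given.

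Entry genes and brakes of the cycle had no common direction. The G1 cyclin and entry list stood at 920 CPM in dividing and 805 CPM in matched barcodes at P30 and at 861 and 896 CPM at P7, with 1 higher and 1 lower of 5 measured genes at P30 and 2 higher and 1 lower of 9 at P7. Ccnd1, the D-type cyclin that responds to growth signals, had a log2 ratio of 0.67 (0.14 to 1.19) at P30 and -0.80 (-1.58 to -0.10) at P7. Myc, a growth factor-induced transcription factor, had 6 UMIs in 2 dividing against 67 in 38 matched barcodes at P30 (-1.90, -3.40 to -0.71) and 15 in 10 against 62 in 34 at P7 (-0.57, -1.49 to 0.26). Ccne2, a cyclin of S phase entry, had 29 against 3 UMIs at P7 (4.75, 3.06 to 7.11).

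Cycle inhibitors and pocket proteins stood at 3886 against 4100 CPM at P30 and 3048 against 3401 CPM at P7, with medians of -0.55 over 18 and -0.16 over 19 of 24 genes. Within the list, 2 were higher and 3 lower at P30, and 3 higher and 1 lower at P7. Cdkn2c, which inhibits the Cdk4 and Cdk6 kinases, had 38 UMIs in 17 dividing against 7 in 6 matched barcodes at P30 (log2 ratio 4.02, 2.84 to 5.43) and 19 in 13 against 1 in 1 at P7 (5.72, 3.07 to 11.10). Cdkn2d, of the same family, had 28 against 9 UMIs at P30 (3.22, 2.09 to 4.48) and 12 against 12 at P7 (1.47, 0.19 to 2.76). Cdkn1a, the p53 target p21, had 170 against 282 UMIs at P30 (0.85, 0.57 to 1.13) and 23 against 104 at P7 (-0.70, -1.42 to -0.04). The members of this list thus went in different directions.

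**Figure D4:**
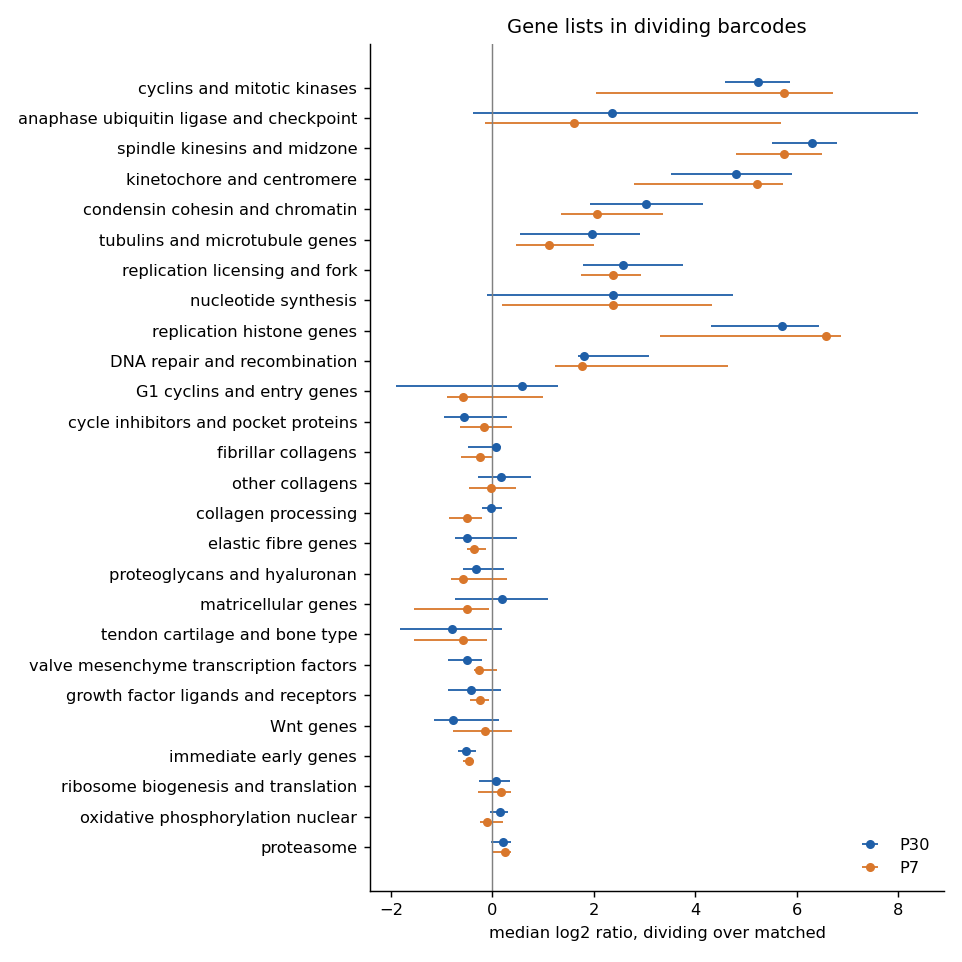
Median log2 ratio of dividing over matched barcodes over the measured genes of 26 lists, P30 in blue above P7 in orange, with the order-statistic interval over genes as bars (the full range of the genes where too few were measured). Cycle machinery lists stand right of 0, up to 6.57 for replication histone genes at P7, while matrix lists lie near 0 or left of it.

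Collagen levels are partly fixed by the rule, since both groups needed at least 1% of UMIs from matrix genes. Of the 4030 fibrillar collagen UMIs of dividing barcodes at P30, Col1a2 held 2535, Col3a1 769 and Col1a1 523, and of the 9014 at P7 they held 4883, 2184 and 1276. The fibrillar collagen levels are therefore a description with no comparison drawn from them. Fibrillar collagen genes stood at 18821 CPM (18244 to 19411) in dividing and 17838 CPM (17513 to 18169) in matched barcodes at P30, and at 37123 CPM (36360 to 37897) and 45520 CPM (45012 to 46032) at P7. No measured gene of the list passed 2-fold in either direction, of 7 at P30 and 6 at P7. Per barcode the medians were 15855 CPM in dividing and 15691 CPM in matched barcodes at P30, and 27906 and 39591 CPM at P7. Col1a2, a chain of type I collagen and a gene of the rule, had 0, 39 and 377 UMIs as lowest, median and highest in dividing barcodes at P30 and 1, 39.5 and 279 in matched barcodes. At P7 Col1a2 had 5, 38.5 and 939 UMIs in dividing and 1, 50.5 and 908 in matched barcodes. Col5a2, a chain of type V collagen outside the rule, stood at 687 CPM in dividing and 615 CPM in matched barcodes at P30 (log2 ratio 0.16, -0.12 to 0.44) and at 1804 and 2103 CPM at P7 (-0.22, -0.38 to -0.07). Collagens of other types, none of them a rule gene, stood at 1947 against 1701 CPM at P30 and 2813 against 3017 CPM at P7, with 0 of 11 and 1 of 13 measured genes past 2-fold. Postn, a matricellular protein of the leaflet, stood at 2190.3 against 1434 CPM at P30 and 5638 against 5277 CPM at P7.

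Proteoglycan and hyaluronan genes stood at 20666 CPM (20061 to 21284) in dividing and 29236 CPM (28819 to 29658) in matched barcodes at P30, and at 14468 CPM (13993 to 14954) and 21186 CPM (20840 to 21536) at P7. The medians were -0.32 over 17 and -0.58 over 19 of 23 genes, with 1 higher and 1 lower at P30 and 4 lower at P7. Dcn, the collagen-binding proteoglycan decorin and a gene of the rule, had 2, 39 and 265 UMIs in dividing and 4, 62.5 and 311 in matched barcodes at P30. At P7 Dcn had 0, 13.5 and 243 UMIs against 0, 22.5 and 254. Its log2 ratio was -0.52 (-0.58 to -0.45) at P30 and -0.58 (-0.66 to -0.50) at P7. Dcn held 2364 of the 4425 dividing and 10098 of the 18697 matched UMIs of the list at P30. At P7 it held 1507 of 3513 and 6258 of 14283. The summed levels of the list and the Dcn ratio are therefore partly fixed by the rule and are a description only. Lum, of the same family, had 201 UMIs in 35 dividing against 1167 in 117 matched barcodes at P30 (-0.96, -1.18 to -0.74) and 223 in 43 against 1012 in 128 at P7 (-0.71, -0.92 to -0.50). Aspn, another small proteoglycan that binds collagen, had 16 in 7 against 144 in 46 at P30 (-1.59, -2.44 to -0.84) and 59 in 17 against 446 in 64 at P7 (-1.44, -1.86 to -1.05). With 2 UMIs as the minimum of the rule the P7 value of Aspn was -0.78. Vcan, the large hyaluronan-binding proteoglycan versican, had a ratio of -0.99 (-1.30 to -0.68) at P30 and of 0.03 (-0.15 to 0.20) at P7.

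Elastic fibre genes stood at 2858 against 3584 CPM at P30, with 0 of 14 measured genes past 2-fold, 9 below equal levels and a median of -0.50. At P7 they stood at 4341 against 5666 CPM, with 2 lower of 15 and a median of -0.36. With 1 matched barcode per member the P7 median was -0.60, and with the mean of barcode CPM it was -0.60. Mfap5, a microfibril protein, stood at 584 against 408 CPM at P30 and 41.2 against 132 CPM at P7, on different sides of equal levels at the ages. Over all measured genes 10% were higher and 10.7% lower at P30, and 7.01% were higher and 8.62% lower at P7. Beside these shares, matricellular genes had 3 higher and 2 lower of 13 measured at P30 and 4 lower of 14 at P7. Collagen processing genes had medians of -0.02 and -0.50, with 3 lower of 20 at each age. Of the valve mesenchyme transcription factors, 2 of 15 were lower at P30 and 1 of 16 at P7. Below equal levels lay 13 of the 15 at P30 (median -0.51) and 10 of the 16 at P7 (median -0.26). Meox1, a homeobox factor, had 21 UMIs in 8 dividing against 244 in 68 matched barcodes at P30 (log2 ratio -1.96, -2.68 to -1.32) and 48 in 21 against 277 in 82 at P7 (-1.06, -1.53 to -0.61).

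Genes of the tendon-, cartilage- and bone-type list were lower in sum, at 8439 CPM (8054 to 8837) in dividing and 18108 CPM (17779 to 18440) in matched barcodes at P30 and at 3620 CPM (3385 to 3867) and 6485 CPM (6294 to 6680) at P7. Per barcode the medians were 6475 against 16077 CPM at P30 and 1626 against 3328 CPM at P7. Mgp, matrix Gla protein, an inhibitor of calcification, held most UMIs of the list. It had 1, 15 and 300 UMIs as lowest, median and highest in dividing and 0, 49 and 365 in matched barcodes at P30 (log2 ratio -1.28, -1.36 to -1.20). At P7 Mgp had 0, 3.5 and 124 UMIs against 0, 4 and 180 (-0.91, -1.05 to -0.78). The median over measured genes was -0.80 at P30, with 1 higher and 5 lower of 12, and -0.58 at P7, with 3 lower of 10. With 2 UMIs as the minimum of the rule these medians were -0.13 and -0.27. Cytl1, a secreted protein of cartilage, had 14 UMIs in 9 dividing against 148 in 35 matched barcodes at P30 (-1.82, -2.73 to -1.03) and 0 against 38 in 14 at P7. Chad, chondroadherin, a cartilage matrix protein, stood at -1.31 (-2.43 to -0.35) at P30 and -1.27 (-2.66 to -0.12) at P7. Bglap, osteocalcin, had 0 UMIs in dividing against 44 in 7 matched barcodes at P30. How many cells of that interstitial type each group held and how much each cell expressed cannot be told apart in these sums.

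**Figure D5:**
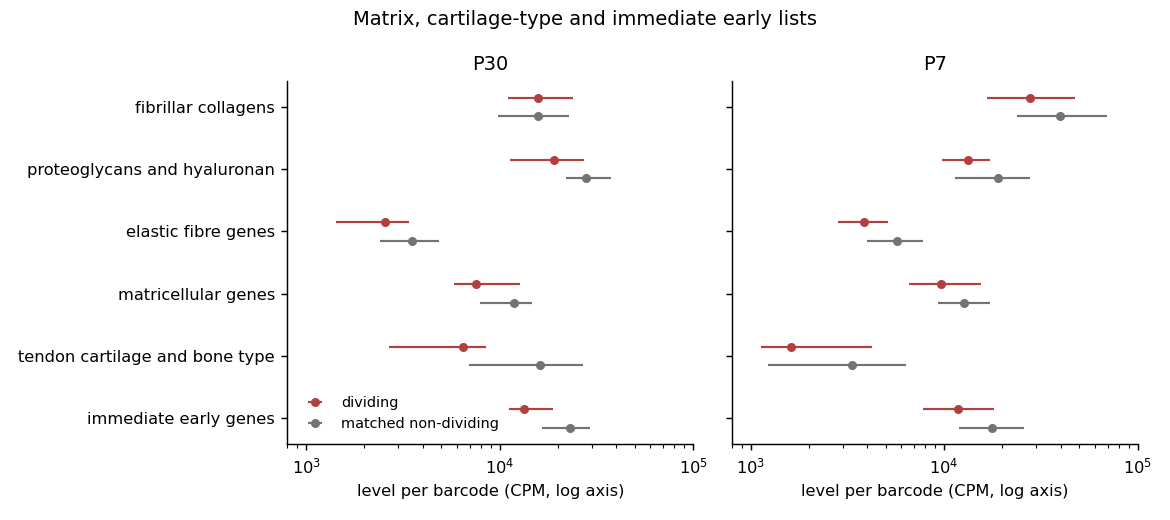
Level per barcode (CPM, log axis) of matrix, tendon-cartilage-bone and immediate early lists, as the median (point) and quartiles (line) over dividing barcodes (red, upper) and matched barcodes (grey, lower). Fibrillar collagens lie at 15855 and 15691 CPM at P30, while the tendon-cartilage-bone list lies at 6475 and 16077 CPM.

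Immediate early genes, which encode the Fos, Jun and Egr factors and respond to growth signals and to cell handling, lay below equal levels in 21 of 21 measured genes at P30 (median -0.51) and in 21 of 21 at P7 (median -0.46). Only 1 of them, at P7, was past 2-fold. The list stood at 15949 CPM in dividing and 22359 CPM in matched barcodes at P30 and at 14978 and 19725 CPM at P7. With cycle genes left out of the totals 20 of 21 at P30 and 19 of 21 at P7 lay below equal levels. Fos stood at 2372 against 3237 CPM at P30 and 3085 against 4343 CPM at P7, and Egr1 at 2676 against 3751 CPM and 2516 against 3236 CPM. The difference was thus small for each gene and in the same direction for most. With 2 UMIs as the minimum of the rule the P30 median was -0.27, and with at least 2% matrix UMIs the P7 median was -0.27.

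Growth factor ligands and receptors had 1 higher and 4 lower of 21 measured at P30 and 1 lower of 23 at P7. The shares over all measured genes were 10% higher and 10.7% lower at P30, and 7.01% higher and 8.62% lower at P7. No result about the lists of this paragraph is read from their counts. Of the genes that mark an Igfbp3- and Fgl2-positive immune fibroblast type, 1 was higher and 4 lower of 14 at P30 and 1 higher and 2 lower of 8 at P7. Igfbp3, which binds insulin-like growth factors, had 14 UMIs in 3 dividing against 145 in 22 matched barcodes at P30 (log2 ratio -1.79, -2.70 to -1.0) and 12 in 9 against 81 in 17 at P7 (-1.28, -2.29 to -0.40). Among genes of Wnt signalling, 4 of 12 measured at P30 and 1 of 13 at P7 were lower, and 1 was higher at P30. Wif1, a secreted Wnt inhibitor, had 72 UMIs in 16 dividing against 962 in 88 matched barcodes at P30 (log2 ratio -2.16, -2.53 to -1.81) and 97 in 20 against 503 in 74 at P7 (-0.90, -1.23 to -0.59). Frzb, another Wnt inhibitor, stood at -1.43 (-2.23 to -0.72) at P30 and -1.40 (-2.92 to -0.17) at P7. Rspo3, which strengthens Wnt signals, had 3 UMIs in 3 dividing against 117 in 49 matched barcodes at P30 (-3.71, -6.01 to -2.12). At P7 Rspo3 lay near equal levels, with 40 UMIs in 13 dividing against 119 in 51 matched barcodes (log2 ratio -0.10, -0.65 to 0.43). With 2 UMIs as the minimum of the rule the P30 values were -0.52 for Wif1 and -0.72 for Rspo3, so that neither was past 2-fold.

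Further genes named as most separated and lower at P30 were Cyp2e1, a cytochrome P450, with 1 UMI against 75, and Crispld2, with 43 against 576 (log2 ratio -2.17). At P7 Bmx, a tyrosine kinase, was named, with 3 UMIs against 78. In the other library Crispld2 stood at -0.58 (-1.23 to 0.03) at P7 and Bmx at -0.45 (-1.50 to 0.48) at P30, neither past 2-fold. Cyp2e1 was not measured at P7. With 2 UMIs as the minimum of the rule the P30 value of Crispld2 was -0.83. Further genes named as most separated and higher at P30 were Pbk, a mitotic kinase, with 86 UMIs in 22 dividing against 1 in 1 matched barcode (8.0, 5.49 to 13.32), and Ckap2l, a spindle protein, with 101 in 22 against 0. Esco2, which joins sister chromatids during replication, had 57 UMIs in 14 dividing barcodes against 0 at P30. Its log2 ratio at the floor of 3 counts was 5.83, with a lower interval bound of 5.48. Esco2 at P7 had 42 against 0 UMIs (5.28 at the floor, lower interval bound 4.92). Esco2 is not in the cycle lists. Outside those lists 91 genes were higher in both libraries, which is 24.9% of the 365 such genes higher at P30 and 42.7% of the 213 at P7. Of all 4975 genes outside the lists, 7.34% were higher at P30 and 4.28% at P7. The names of the 91 genes include Cdca3, Hells, Dek, Plk4, Diap3, Dbf4 and Arhgap11a, which were chosen after their values were seen.

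Housekeeping lists lay near equal levels. Nuclear genes of oxidative phosphorylation had medians of 0.14 at P30 and -0.11 at P7 with 0 of 21 past 2-fold at either age. Proteasome genes had medians of 0.21 and 0.25, with 1 lower of 20 at P30 and 0 at P7. Ribosome biogenesis and translation genes had medians of 0.06 and 0.17.

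Between the ages, dividing barcodes were compared with each other and matched barcodes with each other, P30 over P7. Of 3992 measured genes, 394 were higher (9.87%) and 532 lower (13.3%) in P30 dividing barcodes. In matched barcodes 483 of 7356 were higher (6.57%) and 1154 lower (15.7%), and there the median over all genes was -0.21. Replication histone genes had a median of -2.60 in dividing barcodes, with 13 of 18 measured genes lower at P30. In matched barcodes it was -0.08 over 5 genes. Near-identical H2A copies are among these genes and cannot be told apart here, so the count of lower genes may hold the same signal several times. Hist1h2ao stood at 514 CPM in P30 and 1890.3 CPM in P7 dividing barcodes (log2 ratio -1.88, -2.19 to -1.58) and at 10.9 and 19.3 CPM in matched barcodes. The median for replication licensing and fork genes was -0.34 in dividing and -0.75 in matched barcodes, and that for spindle genes 0.43 in dividing barcodes. The histone difference between the ages was thus seen in the dividing barcodes, in which the median ran from -2.68 to -1.32 over the alternatives tried, and whether it differs from that of matched barcodes was not tested.

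Age differences of matrix and immune genes are given side by side for dividing and matched barcodes, and the difference between the groups was not tested. Fibrillar collagens had medians of -1.36 in dividing (5 of 6 measured lower at P30) and -1.62 in matched barcodes (6 of 7 lower). Col1a1 stood at 2442 CPM in P30 and 5255 CPM in P7 dividing barcodes (log2 ratio -1.11, -1.25 to -0.96), and at 2286 and 7341 CPM in matched barcodes (-1.68, -1.77 to -1.60). MHC class I genes, which present peptides to T cells, had medians of 3.16 in dividing (5 of 7 higher at P30) and 2.75 in matched barcodes (8 of 10 higher). H2-D1 stood at 701 CPM in P30 and 78.2 CPM in P7 dividing barcodes (3.16, 2.47 to 3.93), and at 563 and 53.4 CPM in matched barcodes (3.40, 2.90 to 3.93). Complement genes had medians of 3.05 and 2.86 in dividing and matched barcodes, and interferon response genes 2.5 and 2.47. Cdkn1a stood at 794 CPM in P30 and 94.7 CPM in P7 dividing barcodes (3.07, 2.43 to 3.76) and at 441 and 154 CPM in matched barcodes (1.52, 1.19 to 1.85). The list medians thus had the same sign in both groups. Col1a1 is a gene of the rule, and the intervals cover counting error only. No difference between dividing and matched barcodes is read from them.

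Markers of other cell types were read in the same barcodes, and their part in the results was not tested. Macrophage and monocyte markers stood at 761 CPM in dividing and 314 CPM in matched barcodes at P30, where 2 of 42 dividing and 2 of 126 matched barcodes held at least 0.5% of such UMIs. At P7 they stood at 185 against 16.3 CPM, with 1 of 56 dividing and 0 of 168 matched barcodes at that share. C1qb and Lyz2, macrophage genes, had 34 and 42 UMIs at P30, each in 3 dividing barcodes. Endothelial markers stood at 215 against 322 CPM at P30 and 94.7 against 162 CPM at P7, with 4 of 13 markers at 0 in P30 and 9 of 13 in P7 dividing barcodes. Dendritic markers stood at 46.7 against 346 CPM at P30, with 4 of 4 measured genes lower and 2 of 126 matched barcodes at 0.5% or more, and at 86.5 against 63.8 CPM at P7. Lymphocyte and epicardial markers were at 0 UMIs in the dividing barcodes of both ages. Without the barcodes rich in endothelial or macrophage markers the median for fibrillar collagens at P30 was 0.16.

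Erythroid markers were at 528 CPM in dividing and 1595 CPM in matched barcodes at P30 and at 20835 against 3174 CPM at P7. At P30 1 matched barcode held 245 of the 337 matched UMIs of Hbb-bs (72.7%), a haemoglobin chain, and at P7 1 dividing barcode held 781 of 1353 dividing UMIs (57.7%). The median Hbb-bs count per barcode was 1 UMI in dividing and 0 in matched barcodes at P30, and 3 and 3 at P7. At P7 15 of 56 dividing and 41 of 168 matched barcodes held at least 0.5% erythroid UMIs. The median log2 ratio over 4 measured erythroid genes was -1.66 at P30 and 2.74 at P7. Without the barcodes of at least 5% erythroid UMIs it was 0.014 at P30 and 0.32 at P7, so that neither was past 2-fold. With at least 2% matrix UMIs it was -0.86 at P7, on the other side of equal levels.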

How the data were processed

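Drop-seq UMI counts of 1 P30 and 1 P7 library were used as deposited by the authors, as whole-number counts per gene and barcode with no normalization. Bowtie2 2.2.7 and the build mm10 are named per the submitters' processing notes, without a role, and the sources used here do not give the counting program, annotation or strand setting. Tables scaled per barcode were also deposited by the authors and were left aside. The members, gene lists and tests were chosen with earlier results of these data known. Matching was without replacement, deepest member first, and no barcode was filtered out. A group with 0 counts was set at a floor of 3 counts, so its ratio depends on that floor and its interval has 1 finite bound. Genes named singly were the 15 higher and 10 lower per library, past 2-fold, ranked by the ratio's interval bound on the side of equal levels, without rule, mitochondrial, ribosomal protein, haemoglobin and unnamed genes. Other genes are list members or were chosen after their values were seen. The libraries held 11267724 UMIs at P30 and 3116184 at P7. UMI counts after PCR are not all independent molecules. Scripts ran on Python 3.11.15 with NumPy 2.4.6, pandas 2.3.3, SciPy 1.17.1 and Matplotlib 3.10.9, and were tested on simulated data. Alternatives varied the rule, matching, scaling, filter and barcodes kept. A gene that this naming rule picked is not reported here.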

Additional observations from a re-analysis of the deposited data

Results flagged for a closer look

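Results on opposite sides of equal levels, past 2-fold, in the P30 and P7 libraries are given here, and none of these differences between the libraries was tested. Erythroid markers had a median log2 ratio of dividing over matched barcodes of -1.66 at P30 and 2.74 at P7, over 4 measured genes each. This median was 0.014 at P30 without barcodes of at least 5% erythroid UMIs, and -0.86 at P7 with at least 2% matrix UMIs. H2-Ab1, an MHC class II gene, had 1 UMI in dividing against 66 in 20 matched barcodes at P30 (log2 ratio -4.47, -9.79 to -1.94) and 12 UMIs against 16 at P7 (1.06, -0.15 to 2.23). Its P30 value was 0.66 with 2 UMIs as the minimum of the rule. Dendritic markers, of which H2-Ab1 is one, moved with it at P30, at 46.7 CPM in dividing and 346 CPM in matched barcodes with 4 of 4 measured genes lower, and their part in the result was not tested. Tnc, the matricellular protein tenascin C, had 28 UMIs in 6 dividing against 19 in 6 matched barcodes at P30 (2.14, 1.25 to 3.06), and 1 dividing barcode held 18 of the 28 UMIs. At P7 Tnc had 9 UMIs in 7 dividing against 103 in 39 matched barcodes (-2.04, -3.21 to -1.06).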

How the results depend on the processing

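The alternative without erythroid-rich barcodes was chosen after seeing the data. Of 50 results for genes named singly, 632 of 633 values kept their direction and 625 stayed past 2-fold, and the other 8 all arose with 2 UMIs as the minimum of the rule. With that minimum the P30 share was 2.71%, the P30 medians were 1.77 for replication licensing and -0.27 for immediate early genes, and H2-Ab1 at P30 was 0.66. Thinning to 500 UMIs gave shares of 0.844% at P30 and 3.12% at P7, and barcodes of 1500 to 6000 UMIs gave 0.902% at P30. With 1 matched barcode per member, 272 genes were lower at P30 and 236 at P7, the spindle medians were 4.19 and 4.76, the P30 histone median was 4.02 and the P7 immediate early median -0.35. Against all barcodes with 0 UMIs, unmatched, 2457 genes were higher and 1103 lower at P30 and 1041 lower at P7, and at P30 the spindle median was 7.38 and the histone median 1.78. The mean of barcode CPM gave a spindle median of 5.39 at P30, 917 lower genes at P7 and an immediate early median of -0.58 at P7. Without the filter on UMIs, 4760 genes were higher and 1313 lower at P30 and 4947 and 1243 at P7, with histone medians of 2.16 and 2.47. With at least 50 UMIs, 194 genes were higher and 181 lower at P30 and 139 and 148 at P7. Without endothelial- or macrophage-rich barcodes the fibrillar collagen median at P30 was 0.16. Without erythroid-rich barcodes the erythroid median at P30 was 0.014. With at least 2% matrix UMIs the P7 medians were 1.72 for replication licensing, -0.27 for immediate early genes and -0.86 for erythroid genes. The causes were not tested. Median-of-ratios scaling moved the median of all genes between dividing and matched barcodes by less than 0.1 on the log2 scale. No paired analysis was possible because each age had 1 library and no test was made. Depth limits genes under 20 UMIs, for which no direction is given.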
